A study of Mus musculus with 6 samples.

Results

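Clustered Zfp genes are mouse genes for zinc-finger proteins that lie side by side in the genome. They were selected by name and position alone. A gene was included when its symbol was Zfp followed by a number and at most 1 letter, and when at least 3 other such genes started within 500 kb of its start. Of 370 genes with such symbols among 35976 named genes, 167 met the rule and 203 did not, and the latter are called dispersed Zfp genes here. The 167 genes formed 21 runs on 9 chromosomes, a run being a chain of selected genes whose starts follow each other within 500 kb. Chromosome 7 carried 71 of them in 9 runs, chromosome 17 carried 31 in 2 runs, and chromosome 13 carried 23 in a single run, the largest. RNA was sequenced from ovaries of C57Bl6j embryos at embryonic day E15.5, taken from 3 pools of ovaries exposed to panobinostat (PB, an inhibitor of histone deacetylases) and 3 control pools. The dams received 5 mg/kg PB, or DMSO and water in the control group, from E6.5 to E15.5. The labels and the methods disagree on how often the dose was given and on how many ovaries made up a pool. Each pool holds all cell types of the ovary, so a lower level in fewer cells cannot be told apart from less RNA per cell.

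Zinc-finger proteins of this kind bind DNA through a chain of fingers, each folded around a zinc ion held by a pair of cysteines and a pair of histidines. Many also carry a KRAB domain, which recruits TRIM28 and with it SETDB1, the enzyme that writes the repressive mark H3K9me3, as well as histone deacetylases. A large share of them bind transposable elements, and the genes have multiplied by tandem duplication, which placed related copies next to each other. Among the members with a known role, Zfp809 silences murine leukaemia viruses in embryonic cells and Zfp568 restrains an Igf2 transcript in the early embryo.

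The coding sequences of 165 of the 167 genes could be read from GENCODE M21 (GRCm38, the assembly of mm10). They held a median of 12 finger-coding repeats (quartiles 9 and 15), with a maximum of 30 in Zfp729b. Repeats were found in all but 2 of the 165, Zfp781 and Zfp972, and 145 of them held the sequence for the conserved linker between fingers at least once. A finger and its linker are shown for 6 members, to make visible how alike and how different such stretches are. In each member, the first finger of regular spacing that was followed by the linker was taken. Among fingers of that spacing it was number 3 in Zfp146 and Zfp260, 1 in Zfp811 and 2 in Zfp426. In Zfp955a and Zfp955b it was number 9. The 84 bases are written in the direction of the coding strand, and the capitals mark the codons of the cysteines and histidines that hold the zinc ion.
Zfp146 (chr7:30162313-30162396, minus strand): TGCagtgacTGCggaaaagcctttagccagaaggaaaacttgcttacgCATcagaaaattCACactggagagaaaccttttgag
Zfp260 (chr7:30105073-30105156, plus strand): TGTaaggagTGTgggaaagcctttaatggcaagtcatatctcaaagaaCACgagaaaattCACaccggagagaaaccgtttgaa
Zfp811 (chr17:32798315-32798398, minus strand): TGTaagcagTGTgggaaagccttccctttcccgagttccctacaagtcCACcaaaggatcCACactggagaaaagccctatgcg
Zfp955a (chr17:33241612-33241695, minus strand): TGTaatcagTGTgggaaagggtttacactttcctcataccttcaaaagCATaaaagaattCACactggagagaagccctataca
Zfp955b (chr17:33303020-33303103, plus strand): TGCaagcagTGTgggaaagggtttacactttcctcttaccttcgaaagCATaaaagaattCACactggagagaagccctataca
Zfp426 (chr9:20470739-20470822, minus strand): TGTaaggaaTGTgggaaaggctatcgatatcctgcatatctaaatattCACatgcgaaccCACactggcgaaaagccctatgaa
The neighbours Zfp955a and Zfp955b were identical at 80 of the 84 bases. Each of the other pairs among the 6 shared between 46 and 59 bases, and apart from Zfp146 and Zfp260 these pairs compare fingers of different number. In the linker, 12 of 21 bases were the same in all 6 members. Most of these 12 were fixed in advance, because only fingers followed by the linker sequence were taken. Between the second cysteine and the first histidine, the stretch that codes for the residues that touch DNA, 8 of 36 bases were the same in all 6. The 2 stretches can therefore not be compared by these counts.

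Promoter sequences, from 250 bases before to 50 bases after the start of the gene, were available from RefSeq (GRCm38.p6) for 149 of the 167 genes. All patterns of 6 letters, 2 free letters and 4 letters that occur in them on either strand, 75028 in all, were counted. The pattern with the largest excess over all promoters of the reference was ACTACANNTCCC, which was present in 44 of the 149 promoters (29.5%). It is known as a binding sequence of the factor ZNF143. The 10 patterns present in at least 15 of the promoters were this one and shifted or reverse-strand forms of the same stretch. The motif was present in 1.98% of all 27025 promoters of the reference, in 3.55% of the promoters of genes tested here, and in 6.33% of 158 promoters of dispersed Zfp genes. Of the 44 matches, 43 lay before the gene's start in RefSeq, at a median distance of 51 bases (quartiles 26.5 and 70.8), and 35 stood on the strand opposite to the gene. The start in RefSeq is not always the outermost start in the deposited annotation, and the matches of 26 members lay with their flanks before both starts. From these 26, the member with the highest level in each run is shown, to make visible how closely the stretch recurs in distant runs. Each line has 32 bases upstream of both starts with the motif in capitals, written along the strand on which it reads ACTACANNTCCC.
Zfp146 (chr7:30169850-30169881, plus strand): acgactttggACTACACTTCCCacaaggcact
Zfp60 (chr7:27731334-27731365, plus strand): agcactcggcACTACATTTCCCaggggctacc
Zfp180 (chr7:24081864-24081895, minus strand): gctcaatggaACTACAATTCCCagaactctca
Zfp444 (chr7:6172363-6172394, minus strand): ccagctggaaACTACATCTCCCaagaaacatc
Zfp58 (chr13:67500532-67500563, plus strand): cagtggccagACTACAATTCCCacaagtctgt
Zfp454 (chr11:50887656-50887687, plus strand): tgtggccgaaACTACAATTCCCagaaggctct
One run with the motif, that of Zfp110 on chromosome 7, had no such match.

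The motif was spread very unevenly over the runs. It was found in 18 of 20 promoters of the run on chromosome 13, in 10 of 14 of the run on chromosome 7 that holds Zfp146, in 6 of 10 of the run that holds Zfp180, and in all 4 promoters of the run on chromosome 11. The 3 other runs that held it, all on chromosome 7, had 2 promoters with it each. It was found in none of the 84 promoters of the remaining 14 runs, among them all promoters of both runs on chromosome 17 and of the run on chromosome 6. Neighbouring members can share a promoter by duplication, so the 44 promoters are not independent of each other. The form ACTACATTTCCC accounted for 27 of the 44, in 5 runs. The motif was chosen for its excess in these promoters, so the shares are a description. Common promoter motifs were searched on both strands too. CCAAT was present in 46.3% of the members' promoters, 48.1% of those of dispersed Zfp genes, 38.3% of those of genes tested and 37.9% of all. GGGCGG was present in 40.3%, 47.5%, 57.3% and 35.9% in the same order, and TATAAA in 6.04%, 5.70%, 8.08% and 14.2%. GGGCGG was thus less frequent in the members than in genes tested and more frequent than in all promoters. The promoters of the members held a median of 12 CpG dinucleotides, compared with 17 in dispersed Zfp genes, 18 in genes tested and 7 in all promoters.

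**Figure D1:**
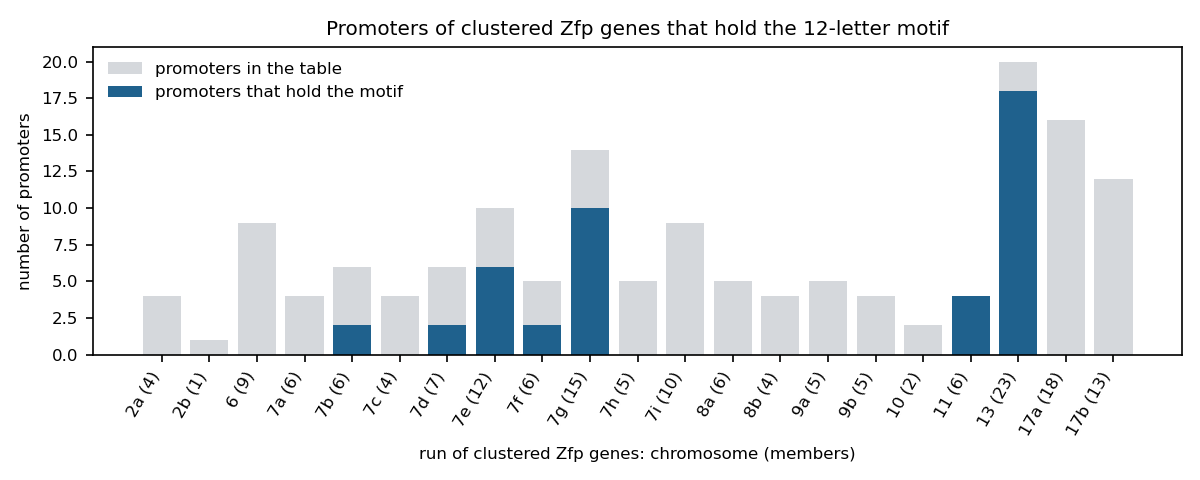
Number of promoters in each of the 21 runs of clustered Zfp genes (grey bars) and number that held the motif ACTACANNTCCC (blue bars), with runs named by chromosome, lettered along it, and with the number of members in parentheses. The motif was present in 18 of 20 promoters of the run on chromosome 13 and in none of the promoters of the runs on chromosomes 6 and 17.

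The deposited read counts, summed over the transcripts of each gene name, totalled between 93599073 and 121180066 per pool. With both groups fitted together, 3 of 19437 genes passed the thresholds of the study in edgeR, namely a 2-fold difference or more and a false discovery rate (FDR) up to 0.05. Markers of the expected cells were present in all pools. The summed germ cell markers lay between 637 and 849 CPM (read counts normalised to library size) in the control pools and between 549 and 937 CPM in the PB pools, with the lowest value in PB pool 2. Of the 8 germ cell markers 6 were lower in PB pools, and Kit, Pou5f1 and Dppa3 had unadjusted p-values of 0.00317, 0.0241 and 0.0476 in edgeR with log2 fold changes of -0.29, -0.58 and -0.52. The other lower markers, Stra8, Ddx4 and Dazl, had log2 fold changes of -0.08, -0.04 and -0.003. Sycp3 and Mael were higher, with 0.34 and 0.25. Globin genes of red blood cells summed to between 10451 and 27041 CPM in control and between 15844 and 16876 CPM in PB pools. The part of these differences in the results below was not tested. The labels call the 3 pools of a group biological replicates without naming their litters, so p-values measure the spread between these pools.

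Clustered Zfp genes were expressed at low but measurable levels in the E15.5 ovary. Of the 167 genes, 166 passed the filter on low counts, and the remaining gene, Zfp457, was at 0.034 on the length-scaled scale. On that scale (TPM, counts scaled to exon length and library size), the median of the tested members was 5.15, with quartiles of 3.21 and 10.04. The median was 8.73 for dispersed Zfp genes and 7.79 for all genes tested.

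Zfp146, whose protein consists of fingers without a KRAB domain, had the highest level. It was measured at 59.3, 58.4 and 64.1 TPM in the control pools and at 66.6, 68.6 and 67.2 TPM in the PB pools. Next came Zfp266 with a mean over all pools of 35.1 ± 3.44 TPM (SD, n = 6) and Zfp260 with 33.3 ± 3.10 TPM, a pair whose levels differed by less than their spread. Zfp771 (31.2 ± 13.9 TPM), Zfp428 (31.1 ± 3.99 TPM), Zfp467 (30.0 ± 1.96 TPM) and Zfp553 (29.3 ± 2.21 TPM) followed and likewise could not be ordered beyond their spread. Zfp467 is known for directing marrow stromal cells towards fat rather than bone. Zfp414 (26.5 ± 1.41 TPM), Zfp768 (23.3 ± 2.08 TPM) and Zfp787 (21.7 ± 1.52 TPM) completed the 10 highest. At the other end, Zfp819 was measured at 0.080 TPM and Zfp972 at 0.384 TPM.

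The levels differed between runs as well as within them. The median of the run on chromosome 6 was 16.2 TPM, and that of the 23 genes on chromosome 13 was 3.74 TPM, where Zfp87 was highest with 10.1 ± 1.18 TPM. Among the other runs of at least 6 genes, the leading members were Zfp580 (21.0 TPM), Zfp60 (18.7 TPM), Zfp354c (17.1 TPM), Zfp110 (14.4 TPM), Zfp869 (13.9 TPM) and Zfp942 (8.22 TPM), beside those already named. Zfp110 is known as a partner of the neurotrophin receptor p75. Members that held the promoter motif had a median of 4.59 TPM (range 0.034 to 64.03), and the 105 others with a promoter sequence had a median of 6.01 TPM. Both the highest and the lowest member of all, Zfp146 and Zfp457, were among those that held it. Zfp809, the silencer of retroviruses, was the highest of its run on chromosome 9 with 10.3 TPM, and Zfp568 was measured at 16.4 TPM. These last 2 were named for their known roles after their values had been seen.

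**Figure D2:**
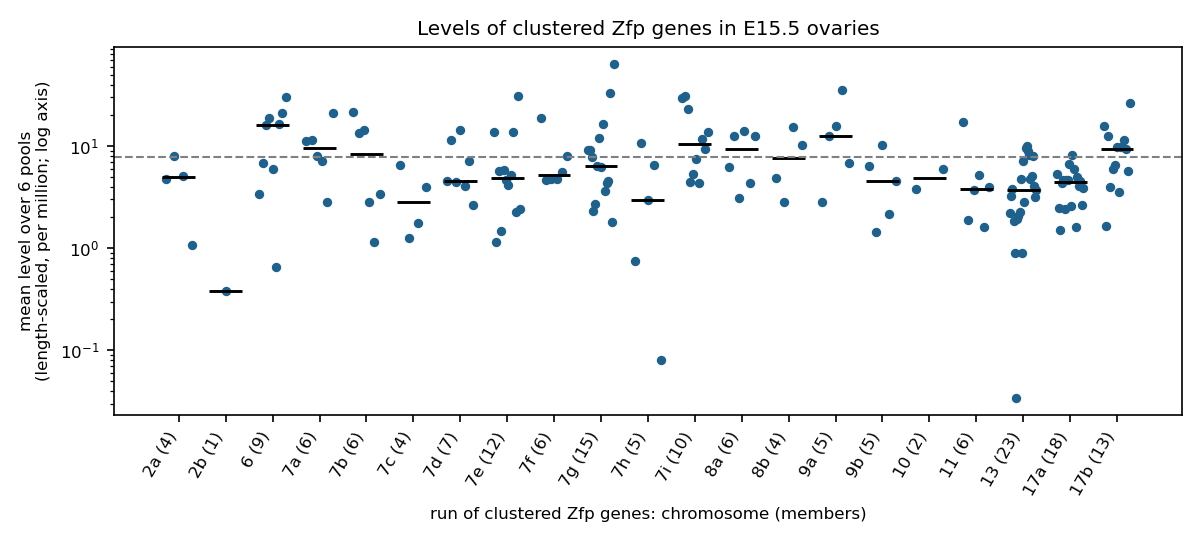
Mean length-scaled level (TPM, log axis) over the 6 pools of each of the 167 clustered Zfp genes, by run, named by chromosome, lettered along it, and with the number of members in parentheses. Black bars mark the median of each run and the dashed line the median of all genes tested, 7.79 TPM. Most members lie below that line, and Zfp146 stands alone at 64.03 TPM.

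Whether PB exposure changed these genes was asked by comparing the gene sums of the PB and control pools. None of the 166 tested genes passed the thresholds in edgeR, where 0.0154% of all genes did, and none did in DESeq2, where 0.0414% of all genes did. The lowest FDR of any member was 0.888 in edgeR. An unadjusted p-value under 0.05 was obtained for 10 of the 166 (6.02%), compared with 4.47% of all genes tested. Of these 10, 9 were higher in PB-exposed ovaries, where 2.03% of all genes were, and 1 was lower, where 2.43% were.

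The pools set bounds on how much the members could have differed. For 153 of the 166 genes the 95% confidence interval of the fold change lay within a 2-fold difference in either direction, and for 137 it lay within 1.5-fold. The estimated difference was under 1.2-fold for 150 genes and at least 1.5-fold for 5. The spread between pools of the same group, as a biological coefficient of variation, had a median of 12.8% for the members and 14.2% for all genes.

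More members lay slightly above than below their control level. The log2 fold change was above 0 for 114 genes and below 0 for 52, so 68.7% were higher, compared with 50.7% of all genes. The median log2 fold change of the members was 0.044 (quartiles -0.026 and 0.125), and that of all genes was 0.0020. Of the dispersed Zfp genes, 137 of 198 were higher with a median of 0.050, and a difference between both sets was not tested. Genes with exactly 3 neighbours, the fewest the rule allows, had a median of 0.037 (18 genes), and those with 2, just outside the rule, had a median of 0.060 (39 genes).

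Summed over all members, the level was 3118, 3087 and 3142 CPM in the control pools and 3233, 3210 and 3276 CPM in the PB pools. On this scale every PB pool lay above every control pool, and the means differed by 3.97%. The groups overlapped when the sum was taken on the length-scaled scale, with 1270, 1177 and 1331 TPM in control and 1442, 1318 and 1419 TPM in PB pools, a difference of the means of 10.6%. As a share of all named counts without TMM scaling, the members held 0.307% in control and 0.328% in PB pools on average. The summed CPM of dispersed Zfp genes was higher by 4.01% in PB pools with overlapping groups, at 6949, 6736 and 7028 CPM in control and 7270, 6948 and 7325 CPM in PB. Among the control pools the sum of the clustered genes was lowest in control pool 2, where globin genes were highest (27041 CPM), and highest in control pool 3, where they were lowest (10451 CPM). The globin sum of the PB pools lay between these values, and its part in the difference was not tested.

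**Figure D3:**
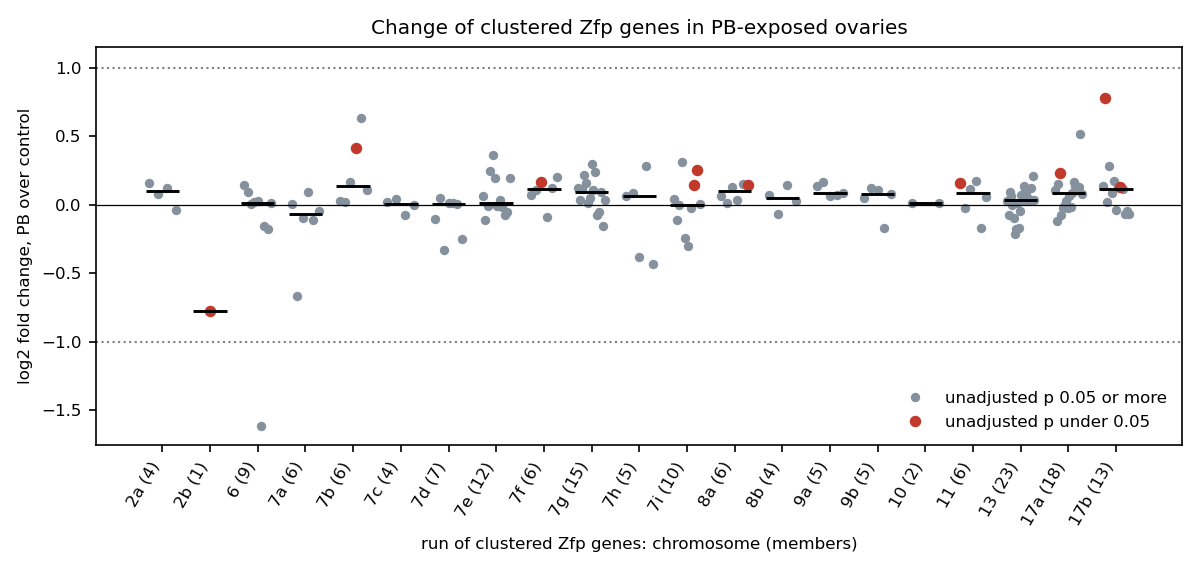
Log2 fold change of the gene sums, PB over control, of the 166 tested clustered Zfp genes by run, named by chromosome, lettered along it, and with the number of members in parentheses. Black bars are the medians of the runs, red points have an unadjusted p-value under 0.05 in edgeR, and dotted lines mark a 2-fold difference. All but 1 of the points lie between the dotted lines and 114 lie above 0.

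Zfp811 on chromosome 17 (positions 32795676 to 32810105) had the smallest p-value. It was measured at 2.25, 3.47 and 2.32 CPM in the control pools and at 4.69, 4.60 and 4.47 CPM in the PB pools. The groups did not overlap, and the PB pools lay closer together than the control pools. Its level was 1.71-fold higher in PB-exposed ovaries (95% interval 1.25 to 2.34), with a log2 fold change of 0.77 ± 0.19 (SE), an unadjusted p = 0.00520 and an FDR of 0.888 in edgeR.

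Zfp866 on chromosome 8 was measured at 44.4, 44.7 and 47.3 CPM in control and 49.1, 50.3 and 51.0 CPM in PB pools, a log2 fold change of 0.14 ± 0.050. Zfp668 was measured at 16.8, 17.1 and 20.5 CPM in control and 21.5, 22.5 and 20.9 CPM in PB pools (0.25 ± 0.091). Another member of its run on chromosome 7, Zfp629, was measured at 42.6, 45.9 and 44.3 CPM in control and 50.1, 49.96 and 46.8 CPM in PB pools (0.14 ± 0.055). In these 3 genes the lowest PB pool lay above the highest control pool, but by less than 3 CPM in each case. Zfp583, also on chromosome 7, had more spread in the PB group, with 14.8, 11.3 and 17.0 CPM against 11.4, 10.1 and 10.9 CPM, and its groups overlapped (0.41 ± 0.15). Its neighbour Zfp78 had the second highest log2 fold change of the members, 0.63 ± 0.28, with 2.83, 1.91 and 1.37 CPM in control and 3.01, 2.67 and 3.78 CPM in PB pools, and an unadjusted p-value of 0.0651 in edgeR.

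The remaining higher genes differed by less than 1.2-fold. Zfp51, the sole one of these in the long run of chromosome 17, had 7.12, 6.78 and 6.47 CPM in control and 7.37, 8.41 and 8.09 CPM in PB pools. Zfp354c on chromosome 11, the member of its run with the highest level, had 54.1, 57.1 and 59.7 CPM in control and 59.6, 64.8 and 65.9 CPM in PB pools, which overlap narrowly. Zfp59 had 11.4, 11.6 and 10.9 CPM in control and 13.1, 12.4 and 12.4 CPM in PB pools. Zfp955a had 22.4, 23.3 and 23.6 CPM in control and 24.7, 26.0 and 25.1 CPM in PB pools. Its near copy Zfp955b lay the same way without overlap, at 27.2, 27.2 and 28.8 CPM in control and 29.8, 30.6 and 29.5 CPM in PB pools.

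Zfp972 on chromosome 2, the sole lower gene of the 10, was near the limit of what could be counted. It had 25, 38 and 26 reads in the control pools and 17, 16 and 20 reads in the PB pools. The log2 fold change was -0.77 ± 0.29 (unadjusted p = 0.0358 and FDR 0.888 in edgeR). Of its 100-base windows, 43.2% were also present in another gene, so reads could have been assigned to either copy.

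**Figure D4:**
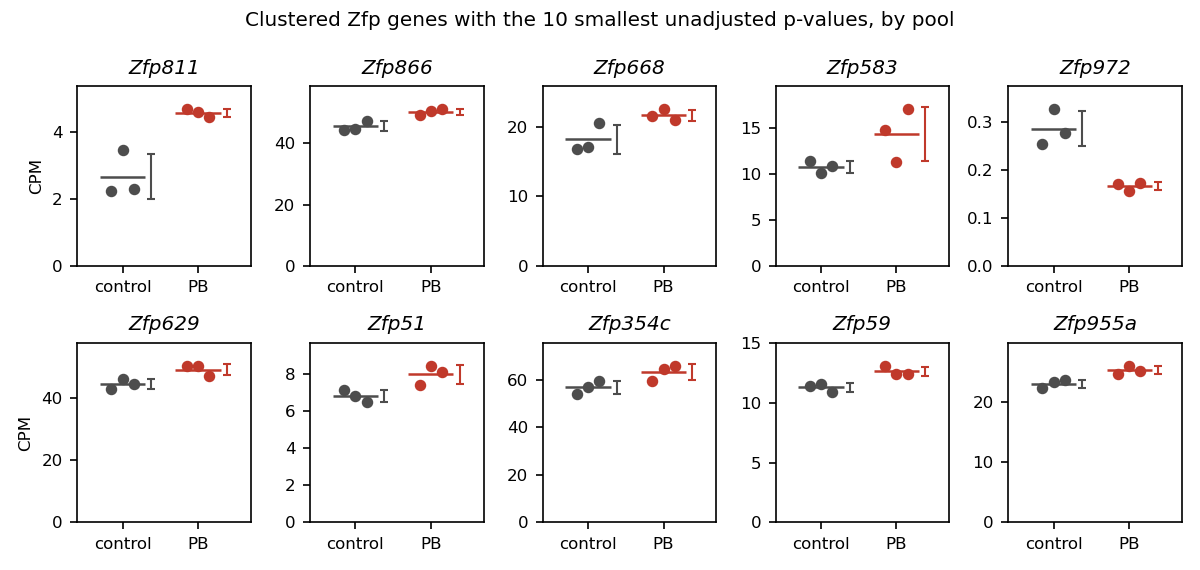
Normalised read counts (CPM, axes from 0) in each pool for the 10 clustered Zfp genes with the smallest unadjusted p-values, 3 control pools in grey and 3 PB pools in red. Horizontal lines are group means and the bars beside them ± SD (n = 3). 9 genes had a higher mean in PB pools and Zfp972 a lower one, and no gene passed the FDR threshold.

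Across all members, the 3 PB values lay above the 3 control values in 21 genes (12.7%), compared with 5.10% of all genes, and below them in 5 genes (3.01%), compared with 5.62%. For dispersed Zfp genes these shares were 8.59% and 3.03%. The 5 lower genes were Zfp972, Zfp599, Zfp354b, Zfp456 and Zfp229. Among the 10 members with the highest levels, Zfp266 and Zfp260 were in the first group. Zfp266 had 144, 148 and 141 CPM in control and 150, 153 and 152 CPM in PB pools, and Zfp260 had 76.8, 78.5 and 80.7 CPM in control and 82.2, 83.4 and 86.2 CPM in PB pools. Both differences were small, with log2 fold changes of 0.07 ± 0.040 and 0.09 ± 0.045 (SE). Zfp146, the highest member, differed by less than its spread (0.04 ± 0.056), with 93.7, 99.6 and 98.5 CPM in control and 96.0, 106 and 97.1 CPM in PB pools. Of these 10, Zfp768 was the closest to no difference (log2 fold change -0.0018 ± 0.074), and the interval of its fold was 0.884 to 1.13.

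By run, the summed CPM of 6 of the 21 runs was higher in every PB pool than in every control pool, that of 1 was lower, and 14 overlapped. A matching share for sums of other neighbouring genes was not computed. The lower run consisted of Zfp972 alone. In the run of 15 genes on chromosome 7 (29768552 to 30169779), which holds Zfp146, Zfp260 and Zfp568, the sum was 415, 416 and 420 CPM in control and 437, 443 and 444 CPM in PB pools, and 12 of the 15 genes were higher. In the run of 5 genes on chromosome 9 (20345136 to 20605404), which holds Zfp266 and Zfp426, all 5 were higher, with sums of 271, 271 and 247 CPM in control and 278, 280 and 285 CPM in PB pools. All 6 genes of the run on chromosome 8 (69209046 to 69774911) were higher too, with sums of 123, 125 and 125 CPM against 132, 129 and 135 CPM. The differences of the means in these 3 runs were 5.85%, 6.79% and 6.10%. The run of 23 genes on chromosome 13 (67038594 to 67827000) overlapped, with 232, 231 and 232 CPM in control and 244, 223 and 248 CPM in PB pools, and so did the run on chromosome 6 and the long run of chromosome 17. Among the overlapping runs, the mean sum was lower in PB pools in those of chromosome 6 (-2.53%), of Zfp580 (-7.15%) and of Zfp110 (-4.32%). It was higher in the other overlapping runs. Members that held the promoter motif were higher in 33 of 43 cases with a median log2 fold change of 0.046, and the others with a promoter sequence in 67 of 105 cases with a median of 0.028. None of the 43 former and 8 of the 105 latter had an unadjusted p-value under 0.05 in edgeR, compared with 4.47% of all genes. These counts are small, and a difference between both sets was not tested.

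The interval of 13 members reached beyond a 2-fold difference. Zfp811 and the low-count Zfp972 were among them, and in some of the others pools of both groups stood at a high and at a low level. Zfp771 was measured at 11.5, 34.7 and 35.1 CPM in control and at 31.0, 34.5 and 9.71 CPM in PB pools, so that 1 pool of each group was low. Zfp945 on chromosome 17 was measured at 6.08, 5.73 and 15.98 CPM in control and at 15.7, 18.1 and 5.97 CPM in PB pools, and had the third highest log2 fold change, 0.52 ± 0.54. That value was 1.16 without control pool 3 and 0.23 without PB pool 2. Low pools of a single group were seen in Zfp329 (5.48 CPM in PB pool 1 and 25.2 to 28.3 CPM elsewhere), Zfp111 (11.1 CPM in control pool 2 and 28.9 to 32.5 CPM elsewhere) and Zfp870 (5.58 CPM in control pool 1 and 14.8 to 16.3 CPM elsewhere).

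Zfp579 on chromosome 7 (4992852 to 4996101) had the third lowest log2 fold change of the members, -0.66 ± 0.39. Its control pools had 23.0, 23.4 and 23.5 CPM, and its PB pools had 10.4, 25.2 and 8.53 CPM. PB pool 2 lay with the control pools. Without that pool the log2 fold change was -1.30 with an FDR of 0.0214 in edgeR, while 12.3% of all genes then had an unadjusted p-value under 0.05. When only known transcripts were counted it was 0.79. Known transcripts held 14.6% of the gene's counts in control and 40.6% in PB pools. Zfp956 on chromosome 6 had the lowest log2 fold change, -1.61 ± 1.85, with 167, 1 and 347 counts in control and 1, 1 and 199 counts in PB pools. Leaving out PB pool 3 moved this value to -7.33 and leaving out control pool 3 moved it to -0.55. Zfp956 shares an assembled locus with Zfp783, which held most of its counts, and the log2 fold change of the whole locus was -0.05. In all, 7 assembled loci held 2 members each. In 3 of them the members lay on opposite sides of 0 with at least 1 of the 2 differing by over 0.2 on the log2 scale, for example Zfp747 (0.31) and Zfp764 (-0.24), whose locus differed by -0.01.

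**Figure D5:**
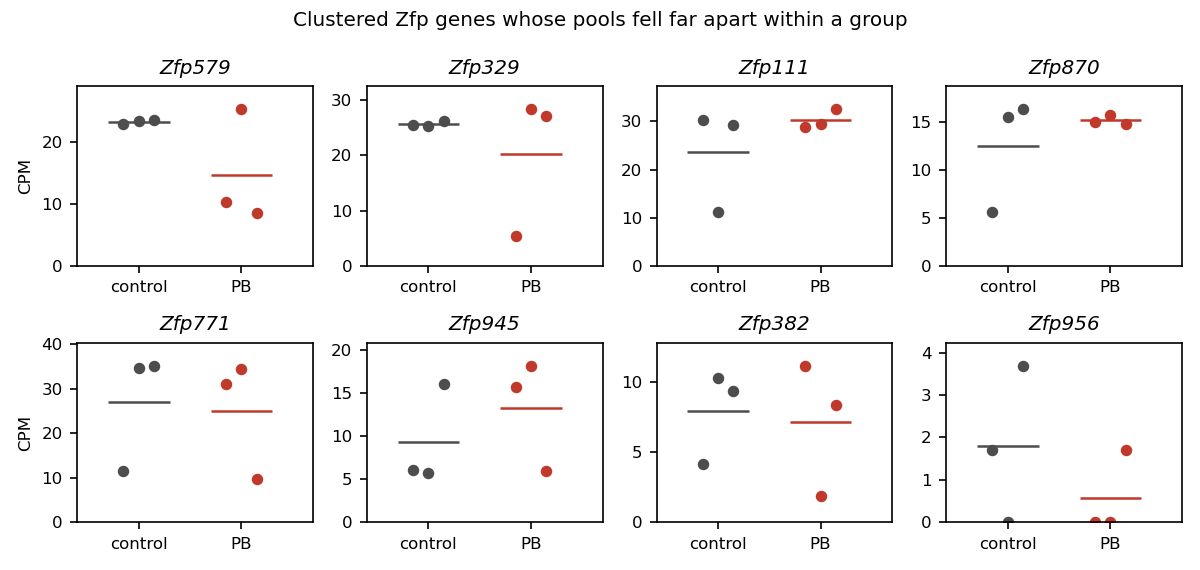
Normalised read counts (CPM, axes from 0) in each pool for 8 of the 13 clustered Zfp genes with wide intervals, chosen after their values were seen, with 3 control pools in grey and 3 PB pools in red. Horizontal lines are group means. In Zfp771 and Zfp945 both groups have pools at a high and at a low level, and in Zfp579 the PB pools 1 and 3 (10.4 and 8.53 CPM) lie below all others.

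The study compared single transcripts. The 167 genes had 585 transcripts, of which 545 were known and 40 were assembled from these reads, and 459 could be tested. None was called in edgeR, compared with 0.0332% of all transcripts, and the lowest FDR was 0.249. An unadjusted p-value under 0.05 was obtained for 14 (3.05%), compared with 3.56% of all transcripts. DESeq2's Wald test, the authors' tool, called 9 of 564 transcripts (1.60%), compared with 1.47% of all transcripts, in the 5 genes Zfp426, Zfp329, Zfp93, Zfp27 and Zfp868. On data simulated for this comparison with 200 transcripts changed 4-fold among 51227, edgeR recovered none and DESeq2 recovered 56 with 633 false calls. With 200 transcripts changed 64-fold, edgeR recovered 61 with 2 false calls and DESeq2 recovered 162 with 670. Transcripts varied far more than the sums of their genes, with a median absolute log2 fold change of 0.35 against 0.091 and a median coefficient of variation of 61.1% between pools. In 16 of 123 tested members with several transcripts, the transcript with the most counts was not the same in both groups.

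Zfp426 on chromosome 9 had the most transcripts, 19, and accounted for 5 of the 9 calls. Its gene sum hardly differed, with 36.9, 36.2 and 36.3 CPM in control and 37.7, 37.8 and 39.1 CPM in PB pools (log2 fold change 0.07 ± 0.047). The transcript XM_011242469.2, which starts at position 20493925 on the minus strand, was absent from the control pools and had 28, 24 and 29 counts under PB. This is at least 8.72-fold higher when control is taken at a floor of 3 counts per pool, with an FDR of 0.249 in edgeR and 2.16e-06 in DESeq2. XM_011242462.2 likewise had no counts in control and 21, 20 and 24 counts in PB pools, at least 6.99-fold higher, and XM_011242459.2 and XM_011242460.2 ranged from 0 to 3 counts in control and from 22 to 28 in PB.

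These 4 transcripts start upstream of the main start of the gene at position 20492746. Their start lies 1143 bases from the end of the neighbouring member Zfp266, which is transcribed from the same strand. Together with 2 others that start there, they had 18, 68 and 4 counts in control and 98, 89 and 105 counts in PB pools, or 0.798% and 2.40% of the counts of the gene. In the control pools nearly all of these counts lay on the 2 other transcripts, which had none in PB pools. The 9 transcripts from the main start had 3465, 3991 and 3250 counts in control and 3441, 3514 and 4272 counts in PB pools, 94.98% and 92.4% of the gene. The remaining call in Zfp426, XM_011242465.1, starts at position 20492779 and is among these 9, so the calls were not confined to the upstream start. It had 0, 0 and 2 counts in control and 21, 19 and 20 counts in PB pools (FDR 0.00159 in DESeq2). Among the other transcripts, XM_017322141.1 of Zfp93 had 40, 80 and 12 counts in control and 233, 368 and 659 in PB pools, whereas the gene sum differed by 0.04 on the log2 scale. XM_011242294.1 of Zfp868 had 30, 13 and 43 counts in control and none in any PB pool, with a gene sum that differed by 0.0094.

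The RNA levels of genes for the proteins through which KRAB zinc-finger proteins silence DNA were examined next. The list held 36 genes found in the data, and protein levels or activities were not measured. Of the 35 tested, 18 were higher and 17 lower, none had an unadjusted p-value under 0.05 in edgeR, where 4.47% of all genes had, and none was called. None was called in the DESeq2 fit either. The median log2 fold change was 0.0009. Trim28, the corepressor bound by the KRAB domain, was measured at 641, 595 and 637 CPM in control and 591, 596 and 594 CPM in PB pools, a log2 fold change of -0.07 ± 0.047. Setdb1 was measured at 188, 167 and 181 CPM in control and 207, 162 and 210 CPM in PB pools (0.11 ± 0.11). In both genes the groups overlapped. At a mean of 285 TPM, Trim28 was above the highest clustered Zfp gene.

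Genes of this kind have multiplied by duplication, so reads of a member can match another gene. The origin of each member was not examined. Of 165 members, 114 shared no window of 100 bases, the read length, with any gene outside their own position. In 13 members more than 10% of the windows were shared, led by Zfp781 (92.4%), Zfp972 (43.2%), Zfp617 (34.2%), Zfp59 (28.5%) and Zfp955a (26.5%). Of these 13, 11 were higher (median log2 fold change 0.12), and 102 of the other 151 were higher with a median of 0.037. Zfp972, Zfp59 and Zfp955a, named above for their p-values, and Zfp955b (18.5%) are among the 13, and their values are uncertain to that extent.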

How the data were processed

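The authors used HISAT2 2.1.0 to align paired-end reads of stranded libraries to mm10, StringTie 1.3.5 to assemble transcripts guided by RefSeq, and DESeq2 1.30.0 to compare them. The deposited values used here are their raw read counts for 114412 transcripts, which StringTie derives by dividing the coverage of a locus among its transcripts. The authors' table of fold changes and p-values was used only for the gene name and class of each transcript. Positions are those of the deposited annotation.

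Counts were summed per gene name. Unnamed transcripts, with 3.05% to 4.49% of the counts, did not enter these sums. Gene sums and transcripts were each fitted over all 6 pools with edgeR 4.0.16 (TMM, filterByExpr at 10 counts and a total of 15, quasi-likelihood F-test). Calls needed a 2-fold difference and an FDR up to 0.05, adjusted over all features tested. DESeq2 1.42.0 was the other tool. CPM use TMM library sizes and TPM were computed from the deposited counts and the exon lengths of the annotation. Standard errors and 95% intervals come from the edgeR fit. A floor of 3 counts corresponded to 0.0257 to 0.0319 CPM for gene sums and covers counting error only. On data simulated for this comparison, edgeR found 157 of 200 genes changed 4-fold among 19437, and 9 of its calls were false.

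Named members are those with the 10 smallest p-values, the 3 highest and 3 lowest fold changes, the 10 highest levels, the highest level in each run of at least 6 genes, and members of known role or with split pools or transcripts named in the text, which were chosen after their values were seen. The shape of the promoter pattern was chosen with a known promoter sequence in view. Members, lists and motifs were chosen with earlier results of these data known. Alternatives were DESeq2's size factors and test, other filters and thresholds, the replicate number as a block, each pool left out, known transcripts only, locus sums, clusters within 250 kb and CPM for the order of levels. The replicate numbers were not taken to pair the pools.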

Additional observations from a re-analysis of the deposited data

How the results depend on the processing

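No clustered Zfp gene was called with DESeq2's size factors, DESeq2's Wald test, no filter or a stricter filter, an FDR of 0.1, no minimum fold, known transcripts only, locus sums or the narrower clusters. With a pool left out, the number called ranged from 0 to 1, the 1 being Zfp579 without PB pool 2. The number of members with an unadjusted p-value under 0.05 fell from 10 in edgeR to 6 of 167 in DESeq2's Wald test. In that test 3.64% of all genes had such a p-value. With a pool left out, the number ranged from 3 to 13 of 166 in edgeR. The 3 were obtained without control pool 2, where 3.67% of all genes had such a p-value. The 13 were obtained without PB pool 2, where 12.3% of all genes did. The number of members above 0 ranged from 96 in the 142 tested genes of clusters within 250 kb to 117. Transcripts were called in DESeq2 alone, where 9 were. When CPM replaced TPM, 5 of the 10 highest members stayed among the 10 highest. Small log2 fold changes turned sign with a pool left out, as in Zfp110 (-0.016 to 0.035), Zfp146 (-0.011 to 0.056), Zfp428 (-0.18 to 0.011), Zfp467 (-0.029 to 0.038), Zfp580 (-0.078 to 0.0005), Zfp768 (-0.052 to 0.050), Zfp771 (-0.48 to 0.27) and Zfp942 (-0.11 to 0.089). With known transcripts only, Zfp579 turned to 0.79 and Zfp942 to 1.10. Zfp579 and Zfp942 had most of their control counts on assembled transcripts, which that alternative leaves out, and the cause of the other changes was not tested. With the replicate number as a block, 0 members were called and 114 were above 0. The unadjusted p-value in edgeR was then under 0.05 in 10 of 166 members, compared with 5.61% of all genes. The deviations of pools with the same number had correlations of 0.09, 0.24 and 0.06 across genes, which are not independent replicates. Those of pools with different numbers ranged from -0.24 to 0.16.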
